A study of Mus musculus with 9 samples.

Results

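The 34 genes described here encode the steps of glycolysis from glucose uptake to lactate export, kinases that switch off pyruvate dehydrogenase, and a set of hypoxia response genes headed by Hif1a. They were chosen by gene name, not by a threshold on measured values, but with earlier results of these data known. The table held 25652 genes, and all 34 were found and had enough reads to be tested. The tissue came from wild-type (WT) mice given 200 µL of talc in saline, at 2.0 g/kg, into the left chest cavity through the diaphragm, a model of adhesions between lung and chest wall. It was collected 30 minutes after talc (day 0), at day 3 and at day 9, with 3 RNA-seq libraries per day. Day 0 had also received talc, and no untreated or saline-treated mice were analysed here, so every comparison is between times after the same injection. Age and sex were not given in the sources used here. Nothing in the labels ties each library to its own mouse, and if libraries share mice, p-values reflect spread between samples that may be technical.

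Glycolysis breaks glucose down to pyruvate, and several of its steps are carried out by alternative enzymes from separate genes. Striated muscle relies on its own forms, here Pfkm, Eno3 and Pgam2, and on the insulin-responsive glucose transporter Slc2a4, whereas leukocytes and stromal cells use Pfkl, Pfkp, Eno1, Pgam1 and Slc2a1. In low oxygen the transcription factor HIF-1, whose alpha subunit is encoded by Hif1a, binds a short motif in promoters and enhancers and raises the transcription of most glycolytic genes and of genes such as Vegfa. The alpha subunit is controlled mainly as a protein, through hydroxylation by the Egln enzymes and destruction through Vhl, so a transcript level does not measure HIF-1 activity.

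Library totals lay between 12769059 and 18701063 counts. The tissue pieces differed in what they contained. Summed skeletal muscle markers (14 genes) lay between 83024 and 110472 counts scaled to library size (CPM) at day 0, between 47589 and 101983 at day 3 and between 58822 and 73956 at day 9, so muscle transcripts were abundant in every library. Summed alveolar type 2 cell markers (10 genes), which stand for lung tissue, lay between 5089 and 5593 CPM at day 0, were 192, 6064 and 138 CPM at day 3 in replicates 1, 3 and 4, and lay between 658 and 2855 CPM at day 9. Day 3 replicate 3 therefore stood apart from the other day 3 libraries as rich in lung and lowest in muscle, although the labels name all tissues alike. Cartilage and bone markers were highest in day 9 replicate 1 at 1952 CPM, day 3 replicate 1 at 1486 CPM and day 0 replicate 3 at 636 CPM. Summed macrophage markers (13 genes) lay between 317 and 456 CPM at day 0, 1141 and 1798 CPM at day 3 and 1548 and 2097 CPM at day 9, none of them at 0. Of these 13 markers, 12 were higher at day 3 and 11 at day 9 than at day 0. In bulk tissue, fewer cells of a type and less RNA per cell cannot be told apart.

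At day 3, 8 of the 34 genes were higher than at day 0 and 3 were lower at a Benjamini-Hochberg adjusted p under 0.05 in edgeR's quasi-likelihood test, adjusted over 14794 genes. Of all genes tested, 16.2% passed at day 3, 12.9% as higher and 3.29% as lower. At day 9, 8 of the 34 genes were higher and 2 lower than at day 0, where 20.7% of all genes passed, 15.2% as higher and 5.54% as lower. Between day 3 and day 9, none of the 34 was higher at day 9 and 3 were lower, where 8.85% of all genes passed, 5.19% as higher and 3.66% as lower. Beside the count of 0 higher genes in edgeR, 5 had an unadjusted p under 0.05, and limma-voom called 0 and DESeq2 3. Both comparisons with day 0 used the same 3 day 0 libraries. The median log2 fold change of the 34 genes was 0.09 at day 3, beside 0.05 for all genes, and -0.23 at day 9, beside 0.01 for all genes. The 4 muscle genes Pfkm, Eno3, Pgam2 and Slc2a4 had a median of -0.81 at day 3 and -0.66 at day 9. The other 30 genes had medians of 0.19 and -0.21, and they include genes that muscle also uses, such as Hk2 and Pkm. Without day 3 replicate 3, the lung-rich library, 9 of the 34 were higher and 4 lower at day 3, and 9 were higher and 8 lower at day 9. Calls over all genes also rose in that fit of 14977 genes. At day 3 they went from 1904 higher and 486 lower to 2555 and 2624. At day 9 they went from 2246 and 820 to 2797 and 2221. Without day 3 replicate 1, 6 of the 34 were higher and 7 lower at day 3 and 9 and 4 at day 9. The 3 genes lower at day 3 became 1 when any 1 day 0 library, day 9 replicate 3 or day 9 replicate 4 was left out, and 2 without day 3 replicate 4 or without day 9 replicate 1. The 8 higher at day 3 became 5 without day 0 replicate 1 and also without replicate 2. Over all genes, 687 were higher and 131 lower at day 3 without day 0 replicate 1. The 2 lower at day 9 became 4 without day 3 replicate 4 and 1 without day 9 replicate 4. Over all genes, 273 were lower at day 9 without day 9 replicate 4.

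**Figure D1:**
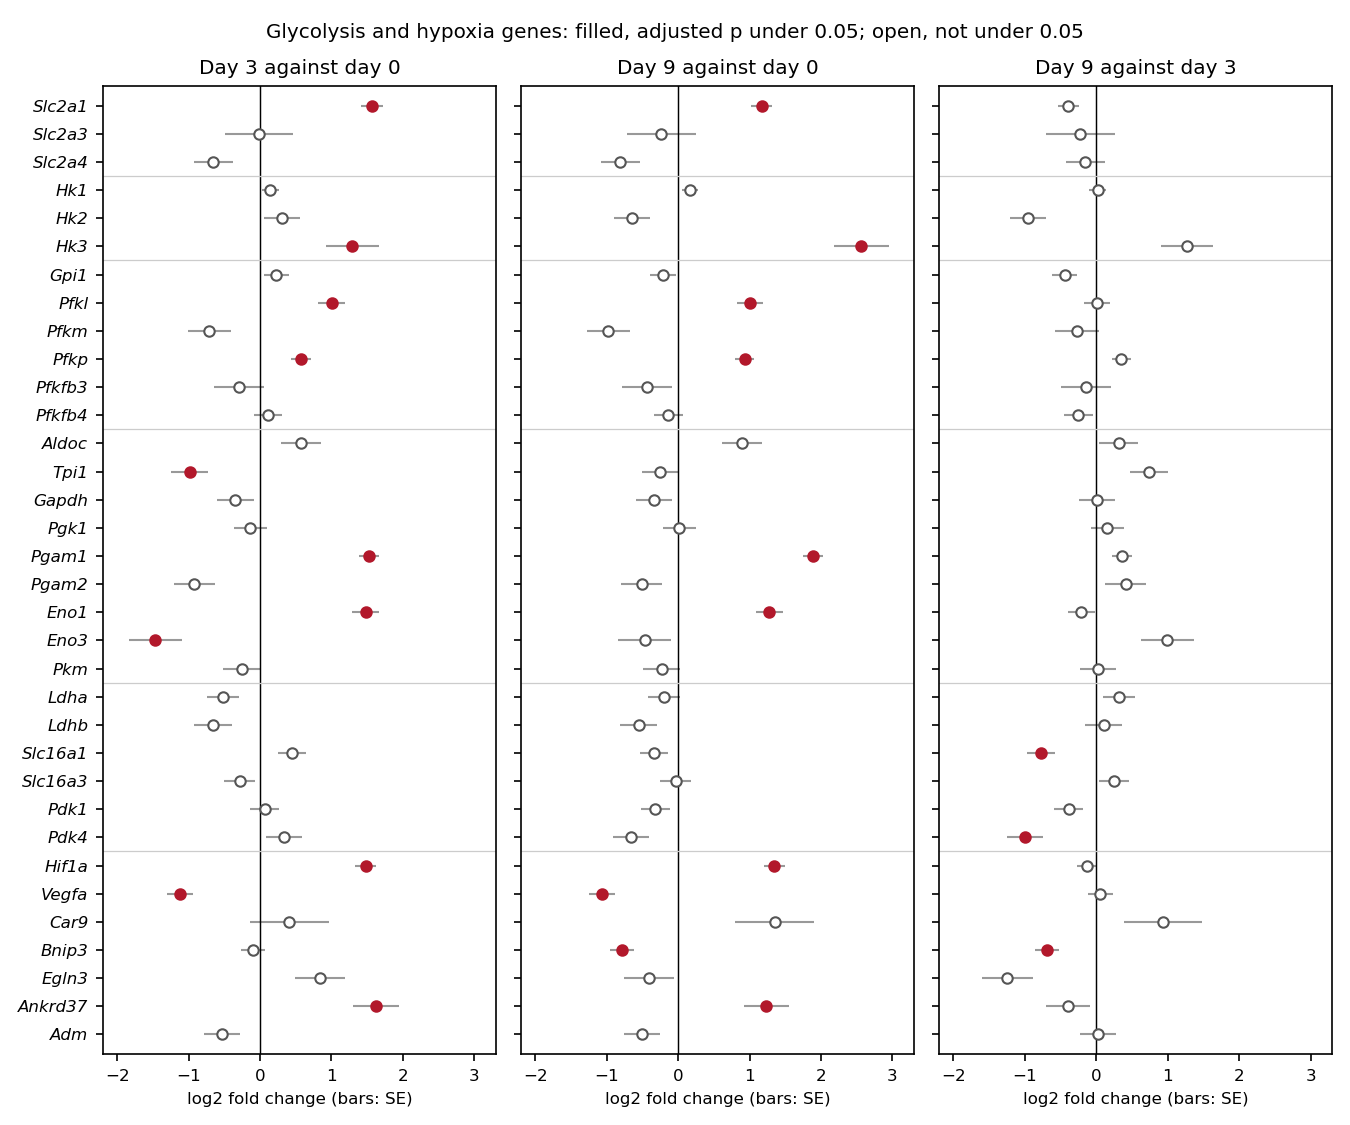
Log2 fold change (x axis) of each of the 34 genes (y axis, grouped by role) at day 3 and day 9 against day 0 and at day 9 against day 3, with bars for the standard error and filled points for an edgeR adjusted p under 0.05. Pgam1, Hif1a, Slc2a1 and Eno1 lie well to the right of 0 in both comparisons with day 0, and Slc2a4, Pfkm, Pgam2 and Eno3 lie to the left of 0 in both.

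Hif1a, which encodes the oxygen-regulated subunit of HIF-1, was higher on both later days. Its level was 45.1, 44.9 and 54.7 CPM in the 3 day 0 libraries, 143, 116 and 145 CPM at day 3 and 106, 137 and 125 CPM at day 9, values being given throughout in replicate order (1, 2, 3 at day 0, otherwise 1, 3, 4). No later library overlapped day 0. The mean of 48.3 ± 5.61 CPM (SD, n = 3) compared with 135 ± 16.4 at day 3, 2.79-fold higher (log2 fold change 1.48, SE 0.15, edgeR adjusted p = 0.000713), and with 123 ± 15.6 at day 9, 2.55-fold higher (edgeR adjusted p = 0.000546). Hif1a passed in all 19 alternative settings in both comparisons. Macrophage markers were higher in the same libraries, and their part in the Hif1a level was not tested.

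The HIF-1 binding motif has the core ACGTG or GCGTG, and windows around the gene starts were searched for it because several hypoxia genes moved in different directions. RefSeq start sites (GRCm38.p6) gave 44 windows, 250 bases before to 50 after the start, for 32 of the 34 genes, and 36 of them (81.8%) held ACGTG or GCGTG on either strand. Among all 32851 promoter windows of the same length, 43.8% did. The windows of these genes were also richer in CG dinucleotides, with a median of 16.5 per window beside 7 for all windows. It was found in 8 of 8 genes called higher against day 0 at either time, in 3 of 4 called lower and in 18 of 20 with a window that were not called. The windows of the regulator gene Hif1a, of Ankrd37, which was higher, and of Bnip3, which was lower at day 9, are printed 5′ to 3′ on each gene's strand, with every match to ACGTG or GCGTG on either strand in capitals. They are Hif1a chr12:73907617-73907916 on the plus strand with 3 matches, Ankrd37 chr8:45999801-46000100 on the minus strand with 4, and Bnip3 chr7:138909457-138909756 on the minus strand with 5. CACGTG reads as ACGTG on both strands and counts as 2 matches, and a match is a description of the letters and not a shown binding site.
Hif1a: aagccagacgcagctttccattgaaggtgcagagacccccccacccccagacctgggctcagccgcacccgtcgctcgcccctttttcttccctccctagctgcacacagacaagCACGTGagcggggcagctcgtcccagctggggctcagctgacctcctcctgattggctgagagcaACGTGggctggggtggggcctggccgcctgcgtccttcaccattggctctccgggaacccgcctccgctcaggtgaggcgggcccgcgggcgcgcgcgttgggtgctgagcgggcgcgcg
Ankrd37: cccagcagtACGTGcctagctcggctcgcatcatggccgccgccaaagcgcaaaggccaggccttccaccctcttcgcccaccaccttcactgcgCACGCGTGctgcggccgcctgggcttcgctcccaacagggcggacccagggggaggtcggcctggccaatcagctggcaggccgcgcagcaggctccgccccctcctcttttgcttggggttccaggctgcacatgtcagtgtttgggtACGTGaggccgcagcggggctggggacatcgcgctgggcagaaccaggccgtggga
Bnip3: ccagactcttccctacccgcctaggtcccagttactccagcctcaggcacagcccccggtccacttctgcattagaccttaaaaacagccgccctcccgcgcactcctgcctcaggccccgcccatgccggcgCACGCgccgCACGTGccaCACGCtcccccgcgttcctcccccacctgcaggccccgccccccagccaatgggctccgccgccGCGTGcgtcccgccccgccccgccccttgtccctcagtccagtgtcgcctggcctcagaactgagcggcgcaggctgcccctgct

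The hypoxia response genes did not move together. Ankrd37, a gene known as a direct HIF-1 target whose protein carries ankyrin repeats, was at a low level of 2.11, 1.75 and 1.46 CPM at day 0, 4.11, 6.70 and 5.63 CPM at day 3 and 2.75, 4.82 and 4.95 CPM at day 9. Every later library was above day 0, and the levels were 3.08-fold higher at day 3 (edgeR adjusted p = 0.0131) and 2.35-fold higher at day 9 (edgeR adjusted p = 0.0268). The day 3 call was lost without day 0 replicate 2 or 3, where the adjusted p reached 0.0563, and the day 9 call without any 1 of the day 0 libraries or without day 9 replicate 3 or 4, where it reached 0.0968. Vegfa, the main endothelial growth factor induced by low oxygen, went the other way. It stood at 443, 487 and 533 CPM at day 0, 203, 262 and 209 CPM at day 3 and 181, 267 and 253 CPM at day 9, with no overlap between day 0 and the later days. The level was 2.17-fold lower at day 3 (log2 fold change -1.12, SE 0.18, edgeR adjusted p = 0.00586) and 2.09-fold lower at day 9 (log2 fold change -1.06, SE 0.18, edgeR adjusted p = 0.00434). Alveolar type 2 cells, which are known to make Vegfa, had lower summed markers in day 3 replicates 1 and 4 and at day 9, and the highest day 3 level of Vegfa was in replicate 3, the library with 6064 CPM of these markers. In that library Vegfa was at 262 CPM, below the day 0 libraries at 443 to 533 CPM. The summed markers of the day 0 libraries lay between 5089 and 5593 CPM. With the mean log2 CPM of the markers as a covariate the day 3 log2 fold change was -0.85 (edgeR adjusted p = 0.0261), beside -1.12 without. The part of alveolar tissue in the Vegfa level was not tested further.

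Bnip3, a mitochondrial protein that drives the removal of mitochondria in low oxygen, was lower at day 9. Its level was 158, 145 and 181 CPM at day 0, 173, 115 and 165 CPM at day 3 and 93.5, 99.0 and 87.1 CPM at day 9. Days 0 and 3 overlapped, and all 3 day 9 libraries lay below every other library. At day 9 Bnip3 was 1.73-fold lower than at day 0 (edgeR adjusted p = 0.0121) and 1.62-fold lower than at day 3 (edgeR adjusted p = 0.0383). The first call was lost without day 9 replicate 4 (adjusted p = 0.0526), and the second passed in only 8 of 19 alternatives, among those that left out 1 library only without day 3 replicate 3. Egln3, a HIF prolyl hydroxylase that is itself strongly induced by HIF-1, did not pass in any comparison in edgeR, with 30.8, 48.8 and 59.3 CPM at day 0, 72.2, 65.5 and 111 CPM at day 3 and 23.7, 52.8 and 28.0 CPM at day 9. All 3 day 3 libraries were above all others for Egln3, yet the day 3 difference of 1.79-fold had an edgeR adjusted p of 0.139, and the 2.37-fold lower level at day 9 than at day 3 one of 0.0662 (DESeq2 adjusted p = 0.00934). Adm, which encodes the vasodilator adrenomedullin, lay between 4.52 and 10.3 CPM, and Car9, the carbonic anhydrase often used as a hypoxia marker, between 0.788 and 6.31 CPM, with 68 to 178 reads per day over 3 libraries. Neither passed in any comparison, and at that depth a difference in Car9 of 2.55-fold between day 9 and day 0 was not separated from the spread (edgeR adjusted p = 0.121).

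**Figure D2:**
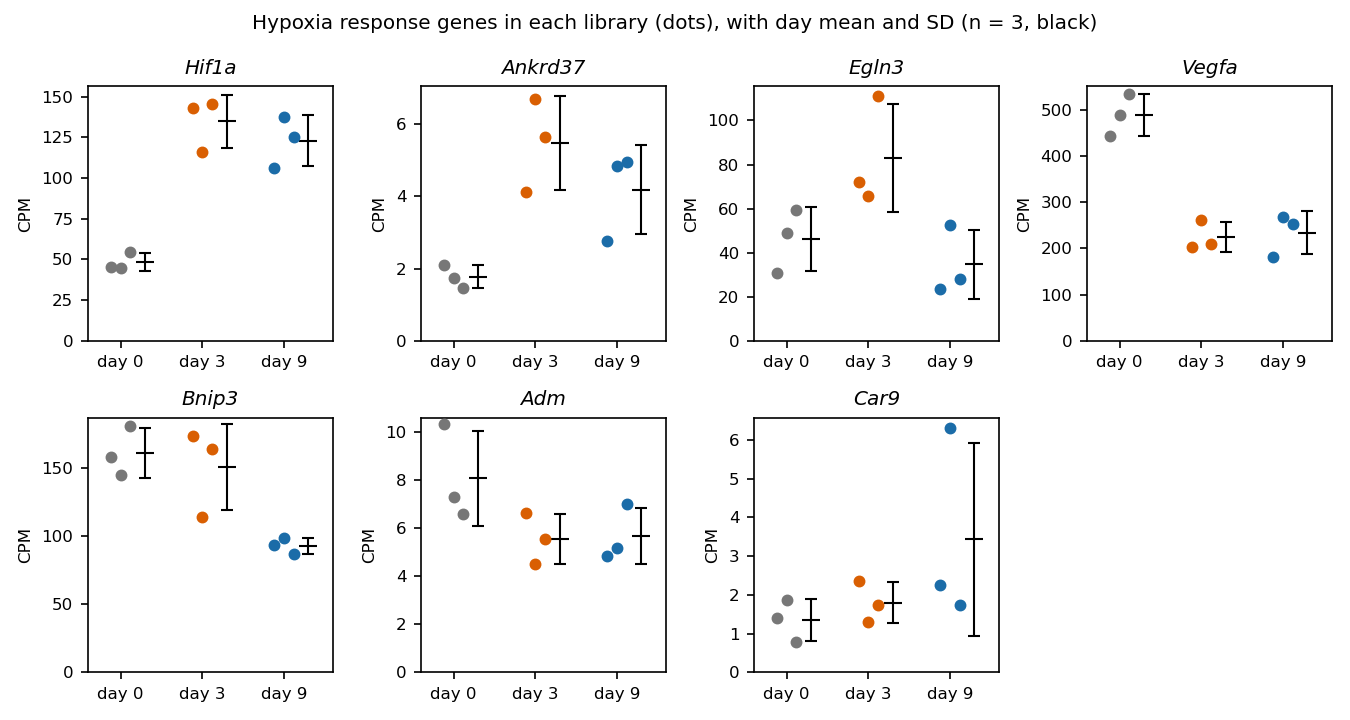
Level in CPM (y axis, from 0) of the 7 hypoxia response genes at day 0, day 3 and day 9 (x axis), with a dot per library and the day mean and SD (n = 3) in black. Hif1a and Ankrd37 are higher in every later library than at day 0, Vegfa is lower in every later library, and Bnip3 is lowest at day 9.

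Slc2a1, the widely expressed glucose transporter of proliferating and activated cells, changed most among the transporters. It stood at 17.1, 21.8 and 19.5 CPM at day 0, 55.2, 53.1 and 64.4 CPM at day 3 and 39.1, 51.9 and 40.3 CPM at day 9. Each day's range lay apart from day 0, and all 3 day 3 libraries were above the day 9 libraries, although the 1.31-fold lower level at day 9 than at day 3 did not pass (edgeR adjusted p = 0.128). Slc2a1 was 2.96-fold higher at day 3 (log2 fold change 1.56, SE 0.15, edgeR adjusted p = 0.000634) and 2.25-fold higher at day 9 (log2 fold change 1.17, SE 0.15, edgeR adjusted p = 0.00109), and both calls held in all 19 alternatives. Slc2a4, the insulin-responsive transporter of muscle and fat, was at 280.0, 296 and 290.0 CPM at day 0, 260.5, 104 and 187 CPM at day 3 and 180.4, 162 and 153 CPM at day 9. Every later library was below day 0, but the differences of 1.57-fold and 1.75-fold did not pass (edgeR adjusted p = 0.14 and 0.0735, DESeq2 adjusted p = 0.0164 at day 9). Slc2a3, the high-affinity transporter of neurons and leukocytes, was at 25.3, 26.5 and 19.0 CPM at day 0, 29.0, 33.2 and 7.76 CPM at day 3 and 11.7, 24.7 and 23.5 CPM at day 9, with overlapping ranges. Its lowest library, day 3 replicate 4 at 7.76 CPM, also had the lowest summed neutrophil markers, 338 CPM beside 2649 and 3022 CPM in the other day 3 libraries, and the part of neutrophils in the Slc2a3 level was not tested.

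Among the hexokinases, which trap glucose in the cell as glucose 6-phosphate, the myeloid form changed and the ubiquitous form kept to a narrow range. Hk3, found mainly in myeloid leukocytes, was at 19.9, 20.7 and 13.8 CPM at day 0, 62.3, 44.6 and 26.1 CPM at day 3 and 154, 68.6 and 98.8 CPM at day 9. The ranges of the 3 days did not overlap. Hk3 was 2.45-fold higher at day 3 (edgeR adjusted p = 0.0484) and 5.91-fold higher at day 9 (log2 fold change 2.56, SE 0.39, edgeR adjusted p = 0.00236). The day 9 call held in all 19 alternatives. The day 3 call held in only 6 of them, its adjusted p lay between 0.0086 and 0.197, and of the fits without 1 library it passed only without day 3 replicate 4 and without day 9 replicate 3. Between day 3 and day 9 the 2.41-fold difference did not pass (edgeR adjusted p = 0.0673; DESeq2 adjusted p = 0.00612). Macrophage markers were also higher on both later days, but not in the same order of libraries at day 3. Their sums were 1383, 1141 and 1798 CPM at day 3 and 2097, 1548 and 1573 CPM at day 9. Summed neutrophil markers were 3022, 2649 and 338 CPM at day 3 and 665, 1450 and 1474 CPM at day 9. The part of macrophages or neutrophils in the Hk3 level was not tested. Hk2, the muscle and insulin-sensitive hexokinase, was at 265, 308 and 275 CPM at day 0, 353, 217 and 483 CPM at day 3 and 199.6, 178 and 164 CPM at day 9. All 3 day 9 libraries were below the others, and the 1.94-fold lower level at day 9 than at day 3 had an edgeR adjusted p of 0.0528 (DESeq2 adjusted p = 0.00545). Hk1, the housekeeping form, lay between 52.4 and 70.5 CPM in all libraries. Per exon length, Hk2 made up 80.4% ± 1.16 (SD, n = 3) of hexokinase reads at day 0, 73.6% ± 11.2 at day 3 and 46.1% ± 6.51 at day 9, while the share of Hk3 went from 8.36% ± 1.56 to 16.4% ± 7.69 and 42.5% ± 8.74.

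At the phosphofructokinase step, the main control point of glycolysis, both forms of non-muscle cells were higher after day 0. Pfkl, the liver-type enzyme that is also prominent in phagocytes, was at 30.5, 30.7 and 45.9 CPM at day 0, 74.2, 62.6 and 77.6 CPM at day 3 and 64.4, 82.7 and 68.1 CPM at day 9. It was 2.00-fold higher at day 3 (edgeR adjusted p = 0.00998) and 2.01-fold higher at day 9 (edgeR adjusted p = 0.00613), and all later libraries were above all day 0 libraries. Without day 0 replicate 1 the day 3 adjusted p was 0.051. Pfkp, the platelet-type enzyme, was at 25.8, 27.0 and 34.6 CPM at day 0, 44.2, 47.9 and 38.3 CPM at day 3 and 58.7, 54.4 and 53.4 CPM at day 9, and the 3 days did not overlap. It was 1.49-fold higher at day 3 (log2 fold change 0.58, SE 0.14, edgeR adjusted p = 0.025) and 1.91-fold higher at day 9 (log2 fold change 0.93, SE 0.14, edgeR adjusted p = 0.00215). The day 9 call of Pfkp held in all 19 alternatives, whereas the day 3 call held in 10 of them and was lost without day 0 replicate 1 or 2, day 3 replicate 1, or day 9 replicate 1 or 4, where the adjusted p reached 0.0984. Pfkm, the muscle enzyme, made up 98.7%, 95.9% and 95.3% of phosphofructokinase reads per exon length at days 0, 3 and 9. It was at 2278, 2025 and 1685 CPM at day 0, 1876, 822 and 966 CPM at day 3 and 1122, 1033 and 888 CPM at day 9. All day 9 libraries were below day 0 while day 3 replicate 1 fell within the day 0 range, and the 1.97-fold lower level at day 9 did not pass in edgeR (adjusted p = 0.0545). It passed with DESeq2 (adjusted p = 0.00441) and in 9 of 19 alternatives in all. Gpi1, which converts glucose 6-phosphate to fructose 6-phosphate, lay between 466 and 803 CPM. Pfkfb3 and Pfkfb4, which make the phosphofructokinase activator fructose 2,6-bisphosphate, lay between 78.4 and 203 CPM and between 28.4 and 48.1 CPM. None of these last 3 passed in any comparison.

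In the lower steps of the pathway the forms of non-muscle cells again rose while several abundant enzymes did not. Pgam1, the phosphoglycerate mutase of most tissues, was at 61.0, 57.8 and 68.6 CPM at day 0, 199.9, 161 and 179 CPM at day 3 and 261, 229 and 203 CPM at day 9. The 3 days did not overlap. It was 2.88-fold higher at day 3 (log2 fold change 1.53, SE 0.14, edgeR adjusted p = 0.000556) and 3.70-fold higher at day 9 (log2 fold change 1.89, SE 0.14, edgeR adjusted p = 0.000175), in both cases in all 19 alternatives. Eno1, the enolase of most tissues, was at 152, 154 and 208 CPM at day 0, 474, 386 and 578 CPM at day 3 and 427, 438 and 379.9 CPM at day 9. Both later days lay above day 0, by 2.79-fold (edgeR adjusted p = 0.00211) and 2.42-fold (edgeR adjusted p = 0.00223). Its muscle counterpart Eno3 was at 2877, 2705 and 2023 CPM at day 0, 1550.0, 595 and 612 CPM at day 3 and 2008, 1933 and 1545 CPM at day 9. All day 3 libraries lay below all day 0 libraries, and Eno3 was 2.76-fold lower at day 3 (log2 fold change -1.46, SE 0.38, edgeR adjusted p = 0.0334) but not at day 9 (1.39-fold lower, edgeR adjusted p = 0.39). The day 3 call held in 11 of 19 alternatives and was lost without any 1 day 0 library, without day 3 replicate 4 or without day 9 replicate 3 or 4, where the adjusted p reached 0.106. All day 9 libraries also lay below all day 0 libraries. Summed muscle markers were 101983, 47589 and 75205 CPM in the day 3 libraries, beside 83024 to 110472 CPM at day 0. The covariate was not this sum but the mean log2 CPM of the markers, 11.83, 10.74 and 11.77 at day 3 beside 11.59 to 11.93 at day 0. With it the day 3 log2 fold change of Eno3 was -1.20 (edgeR adjusted p = 0.0225), beside -1.46 without. The part of muscle content in the Eno3 level was not tested further.

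Tpi1, which interconverts the 2 triose phosphates, also fell at day 3. It was at 1218, 1171 and 947 CPM at day 0, 793, 375 and 517 CPM at day 3 and 977, 1005 and 822 CPM at day 9, so that day 3 lay below both other days. The 1.98-fold lower level at day 3 passed (log2 fold change -0.99, SE 0.26, edgeR adjusted p = 0.0376) in 10 of 19 alternatives, and among the fits without 1 library only without day 3 replicate 1 or 3, with an adjusted p of up to 0.12 in the others. At day 9 it was 1.19-fold lower than at day 0 (edgeR adjusted p = 0.517). Pgam2, the muscle phosphoglycerate mutase, was at 779, 791 and 592 CPM at day 0, 525, 221 and 397 CPM at day 3 and 559, 529.7 and 429 CPM at day 9. All later libraries were below day 0, and neither the 1.89-fold nor the 1.42-fold difference passed (edgeR adjusted p = 0.0646 and 0.244, DESeq2 adjusted p = 0.00717 at day 3). Gapdh and Pgk1, which carry out the oxidation and the first ATP-yielding step, and Pkm, the pyruvate kinase of muscle and of most other tissues, lay between 1229 and 2689, 357 and 647, and 1170 and 2442 CPM. None of these 3 passed in any comparison, and reads of the muscle and the general splice form of Pkm are counted together. Aldoc, an aldolase best known from brain, lay between 1.70 and 4.34 CPM and was 1.85-fold higher at day 9 (edgeR adjusted p = 0.0537). Gapdh, Pgk1, Tpi1, Pgam1, Eno1 and Ldha have near-identical processed copies elsewhere in the mouse genome, so their counts are uncertain to the extent that reads were shared with those copies. Aldoa, the main aldolase of muscle, was not analysed here.

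**Figure D3:**
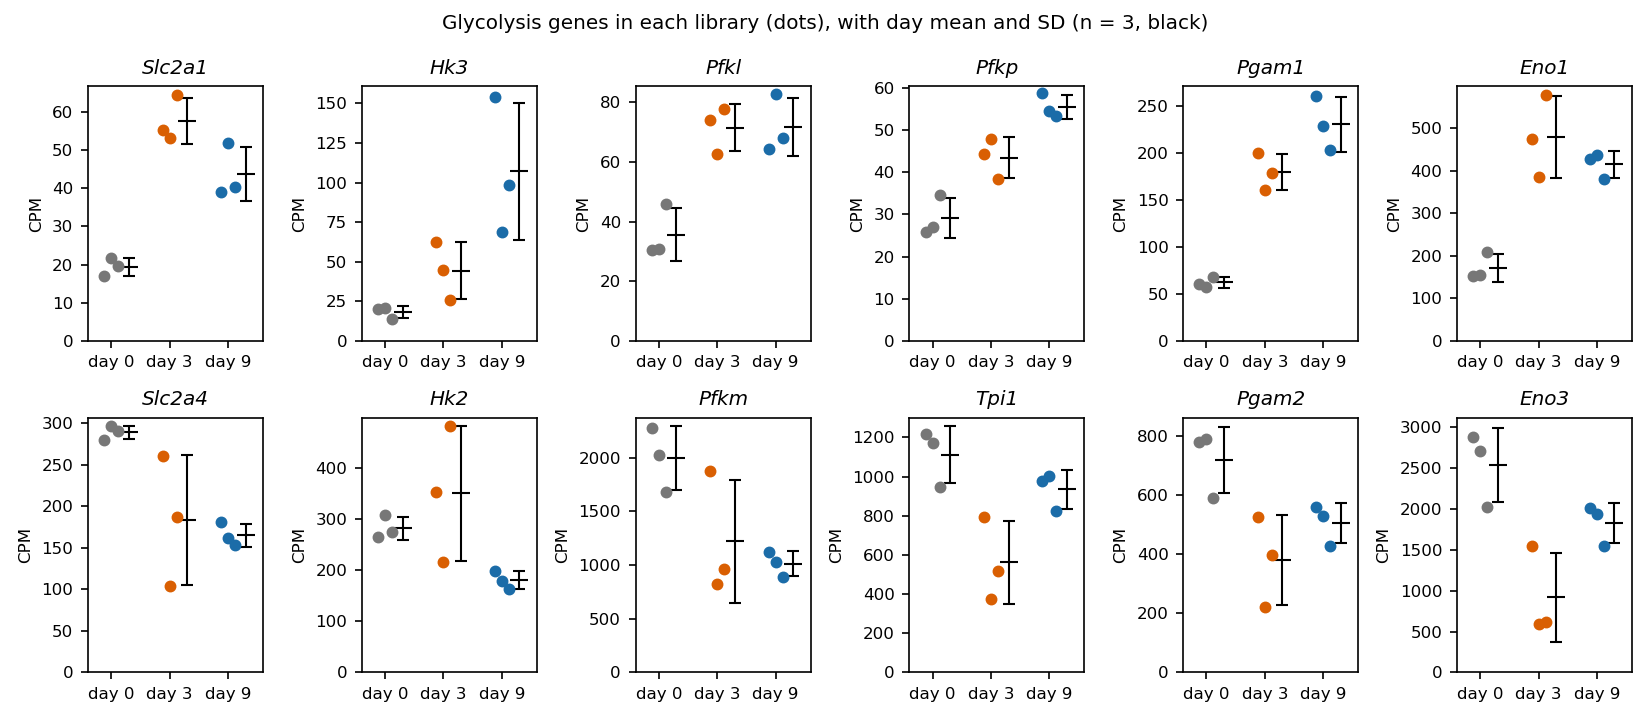
Level in CPM (y axis, from 0, with its own scale per gene) of 12 glycolysis genes at day 0, day 3 and day 9 (x axis), with a dot per library and the day mean and SD (n = 3) in black. Slc2a1, Hk3, Pfkl, Pfkp, Pgam1 and Eno1 lie above day 0 in every later library, whereas Slc2a4, Pgam2 and the day 3 values of Tpi1 and Eno3 lie below it.

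Ratios of the muscle form to the form of other cells, taken from the counts within each library, do not depend on scaling between libraries. The Eno3 to Eno1 ratio was 18.9, 17.5 and 9.72 in the day 0 libraries, 3.27, 1.54 and 1.06 in those of day 3 and 4.70, 4.41 and 4.07 in those of day 9. It was lowest at day 3 and lay between the other days at day 9, with no overlap between any 2 days. Its geometric mean was 8.45-fold lower at day 3 and 3.37-fold lower at day 9 than at day 0, and 2.51-fold higher at day 9 than at day 3. The Pgam2 to Pgam1 ratio was 12.8, 13.7 and 8.63 in the day 0 libraries, 2.63, 1.37 and 2.21 in those of day 3 and 2.14, 2.32 and 2.12 in those of day 9. Its geometric mean was 5.74-fold lower at day 3 and 5.24-fold lower at day 9 than at day 0, and days 3 and 9 overlapped (exact permutation p = 0.9). The ratio of Pfkm to Pfkl plus Pfkp was 40.5, 35.1 and 20.9 in the day 0 libraries, 15.8, 7.44 and 8.33 in those of day 3 and 9.12, 7.53 and 7.30 in those of day 9, 3.12-fold lower at day 3 and 3.90-fold lower at day 9 than at day 0. Every day 0 library lay above all later libraries for these 3 ratios. The exact permutation test gave p = 0.1, the smallest that 3 against 3 libraries allow, for all 7 comparisons without overlap, which is 0.171 after Benjamini-Hochberg adjustment over 12 ratio comparisons and does not pass. Of the genes in these 3 ratios, the forms of other cells were 1.49 to 3.70-fold higher on the later days, and of the muscle forms only Eno3 passed in edgeR, at day 3. DESeq2 also called Pgam2 (adjusted p = 0.00717) and Pfkm (adjusted p = 0.0451) lower at day 3 and Pfkm at day 9. Summed muscle markers were below the day 0 range in 2 day 3 libraries and in all 3 day 9 libraries, and 1 of the 14 was lower at day 3 and 0 at day 9 in edgeR (1 at an unadjusted p under 0.05). By mean log2 CPM of the 14, day 3 replicate 4 (11.77) lay within the day 0 range of 11.59 to 11.93. In that library Myh4 was at 6683 CPM beside 24813 to 38441 CPM at day 0. Its Acta1 level was 23377 CPM beside 12748 to 17886 CPM at day 0, so its lower sum does not hold for every marker. Macrophage markers were higher on both later days (12 and 11 of 13, median log2 fold change of the list 2.14 and 2.35), and 6 of 9 fibroblast markers were higher at day 9. The part of muscle, macrophages or fibroblasts in these ratios was not tested, nor was it for Slc2a1, Pfkl, Pfkp, Pgam1 and Eno1 alone. The muscle form remained the larger in each of these ratios, by counts and per exon length. Per exon length, Eno3 was at 96.8% to 98.3% of enolase reads in the day 0 libraries, 76.6% to 91.0% in those of day 3 and 92.6% to 93.6% in those of day 9. Pgam1 made up 3.63% ± 0.916 of phosphoglycerate mutase reads per exon length at day 0, 17.8% ± 5.08 at day 3 and 16.2% ± 0.671 at day 9 (SD, n = 3). These shares depend on the merged exon lengths, 5379 bases for Eno1 and 1739 for Eno3, 1982 for Pgam1 and 840 for Pgam2. By counts alone the Eno3 to Eno1 ratio was 1.06 in day 3 replicate 4.

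**Figure D4:**
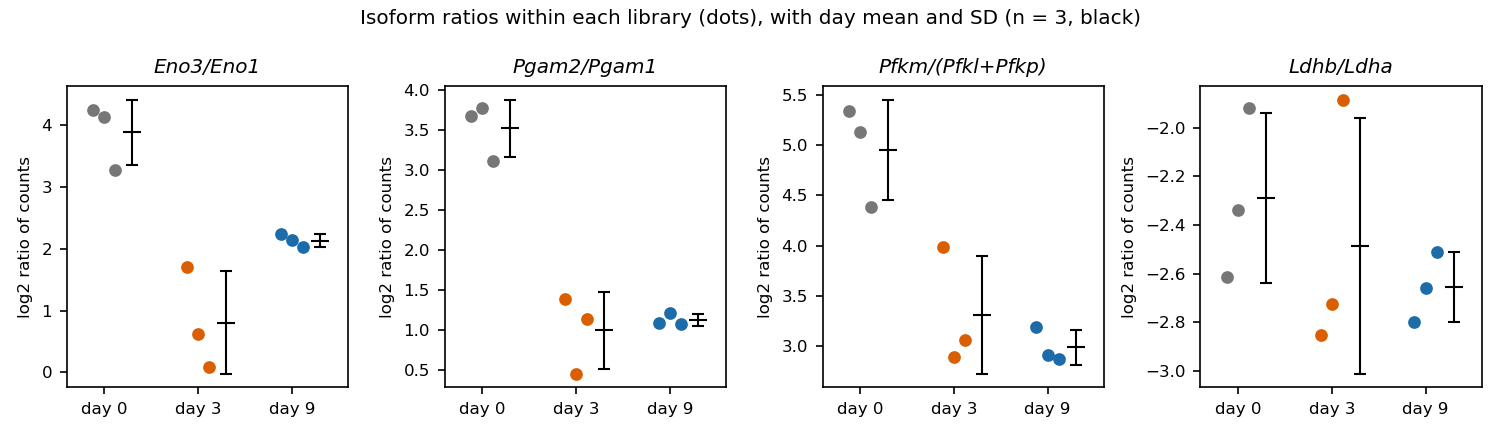
Log2 ratio of counts (y axis) of Eno3 to Eno1, Pgam2 to Pgam1, Pfkm to Pfkl plus Pfkp, and Ldhb to Ldha in each library at day 0, day 3 and day 9 (x axis), with the day mean and SD (n = 3) in black. The first 3 ratios lie lower in every later library than at day 0, and the lactate dehydrogenase ratio overlaps between days.

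At the end of the pathway none of 6 genes passed against day 0 in edgeR. At an unadjusted p under 0.05, 1 was lower at day 3 and 1 at day 9, limma-voom called 0, and DESeq2 called 2 as lower at day 3 and 1 at day 9. Ldha, the lactate dehydrogenase subunit that favours lactate formation, lay between 725 and 1593 CPM, and Ldhb, the heart-type subunit, between 110 and 307 CPM. Their count ratio overlapped between all days (exact permutation p = 0.6 for day 3 and 0.2 for day 9 against day 0), and Ldha made up 69.7% ± 5.15, 72.3% ± 7.52 and 74.9% ± 1.87 of lactate dehydrogenase reads per exon length at days 0, 3 and 9. These shares depend on merged exon lengths of 3310 bases for Ldha and 1570 for Ldhb, and by counts alone the share of Ldha was larger. Slc16a3, the lactate exporter of glycolytic cells, lay between 89.4 and 152 CPM and passed in no comparison. Slc16a1, the more widely expressed lactate transporter, was at 61.0, 76.8 and 81.7 CPM at day 0, 95, 75.6 and 128 CPM at day 3 and 60.2, 61.7 and 52.3 CPM at day 9. All day 9 libraries were below the day 3 libraries, by 1.71-fold (log2 fold change -0.78, SE 0.20, edgeR adjusted p = 0.0453). Pdk4 and Pdk1 encode kinases that switch off pyruvate dehydrogenase, Pdk4 in fasting and fat use and Pdk1 in low oxygen. Pdk4 was at 413, 418 and 618 CPM at day 0, 724, 415 and 690.3 CPM at day 3 and 276, 353 and 291 CPM at day 9, and all day 9 libraries were below all others. It was 1.99-fold lower at day 9 than at day 3 (log2 fold change -0.99, SE 0.25, edgeR adjusted p = 0.0454), and the 1.58-fold difference from day 0 did not pass (edgeR adjusted p = 0.0987). Among fits without 1 library, the Slc16a1 call held only without day 3 replicate 3, and the Pdk4 call only without day 0 replicate 3 or day 3 replicate 3, with adjusted p-values of up to 0.191 and 0.176 in the others. Pdk1 lay between 47.0 and 84.7 CPM and passed in no comparison.

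Genes of the same pathways outside the 34 were taken from 4 further lists. Of 7 regulators of HIF, 2 were higher and 0 lower at day 3 in edgeR (2 lower at an unadjusted p under 0.05), and 1 was higher and 3 lower at day 9. Between day 3 and day 9, Arnt was lower (1.26-fold, edgeR adjusted p = 0.0358). The shares of all genes were 12.9% higher and 3.29% lower at day 3, and 15.2% and 5.54% at day 9. Against day 3 they were 5.19% and 3.66% at day 9. Vhl, which marks hydroxylated HIF for destruction, went from 12.5 ± 0.884 CPM (SD, n = 3) at day 0 to 18.2 ± 0.752 at day 3 and 23.4 ± 1.83 at day 9 (edgeR adjusted p = 0.0141 and 0.000807). Arnt, the constant partner of HIF alpha subunits, was 1.22-fold higher at day 3 (edgeR adjusted p = 0.0383). Lower at day 9 were the hydroxylases Egln1 (1.51-fold, edgeR adjusted p = 0.042) and Hif1an (1.53-fold, edgeR adjusted p = 0.0141). Epas1, which encodes the HIF-2 alpha subunit prominent in endothelium, was 3.26-fold lower at day 9 (edgeR adjusted p = 0.0486), the opposite direction to Hif1a. It was at 1136, 1029 and 1188 CPM at day 0, 223, 1004 and 318 CPM at day 3 and 231, 377 and 422 CPM at day 9. Summed endothelial markers (8 genes) lay between 1639 and 1815 CPM at day 0, 636 and 1534 CPM at day 3 and 655 and 1045 CPM at day 9, and 3 of the 8 were lower at day 9 than at day 0. In day 3 replicate 3, Epas1, the endothelial markers and the alveolar type 2 markers (192, 6064 and 138 CPM at day 3) were all highest of that day, and the part of endothelium or lung tissue in the Epas1 level was not tested.

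Of 17 other hypoxia targets, 5 were higher and 1 lower at day 3, and 6 were higher and 1 lower at day 9, while against day 3 the counts at day 9 were 1 higher and 2 lower. The shares of all genes were 12.9% higher and 3.29% lower at day 3, and 15.2% and 5.54% at day 9. Against day 3 they were 5.19% and 3.66% at day 9. Ero1a, an oxidase of the endoplasmic reticulum, was 2.35-fold higher at day 3 and 1.65-fold at day 9 (edgeR adjusted p = 0.00586 and 0.0337). Lox, the collagen cross-linking oxidase, was 2.26-fold and 2.74-fold higher (edgeR adjusted p = 0.00748 and 0.00164), and Plod2, a collagen lysyl hydroxylase, was 3.20-fold higher at day 9 (edgeR adjusted p = 0.00168). Lox and Plod2 are also matrix genes of fibroblasts, 6 of whose 9 markers were higher at day 9, and the part of fibroblasts in their levels was not tested. Ddit4, an inhibitor of mTORC1 signalling, fell from 124, 121 and 127 CPM at day 0 to 41.7, 43.9 and 56.0 CPM at day 3 and 15.7, 30.5 and 24.5 CPM at day 9. The 3 days did not overlap, and all 3 comparisons passed (2.63-fold, 5.26-fold and 2.00-fold lower, edgeR adjusted p = 0.00536, 0.000359 and 0.0294). Ankrd1, better known as a stress gene of striated muscle, was higher at day 3 (edgeR adjusted p = 0.0132) but unevenly, with 120.2, 216 and 1647 CPM at day 3 beside 6.49, 7.18 and 24.9 CPM at day 0 and 12.9, 8.51 and 15.6 CPM at day 9.

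Of 18 other glycolysis and pyruvate genes tested, 1 was higher and 2 lower at day 3, and 2 were higher and 1 lower at day 9, while against day 3 the counts at day 9 were 2 higher and 1 lower. Beside this list and the 14 genes below, all genes had 12.9% higher and 3.29% lower at day 3. At day 9 all genes had 15.2% and 5.54%, and against day 3 they had 5.19% and 3.66%. Eno2, the enolase of neurons that other cells also make in low oxygen, was at 2.05, 2.06 and 3.66 CPM at day 0, 6.91, 3.46 and 2.51 CPM at day 3 and 25.3, 17.5 and 20.4 CPM at day 9. It was 8.09-fold higher at day 9 than at day 0 and 4.87-fold higher than at day 3 (edgeR adjusted p = 0.00138 and 0.0141). Pdk3 was 1.56-fold higher at day 3 and 1.68-fold at day 9, whereas Pdk2, the most widely expressed pyruvate dehydrogenase kinase, was 1.86-fold lower at day 9 (edgeR adjusted p = 0.0345, 0.0145 and 0.0261). Lower at day 3 were Pfkfb1, the liver and muscle form of the activator-making enzyme, and Bpgm, which makes 2,3-bisphosphoglycerate in red cells (2.80-fold and 2.29-fold, edgeR adjusted p = 0.00662 and 0.0396). Summed erythroid markers (5 genes) lay between 7572 and 10926 CPM at day 0 and were 5389, 4570 and 1252 CPM at day 3, beside 63.1, 43.0 and 23.3 CPM of Bpgm. All 5 had negative log2 fold changes at day 3 (median -1.35), all 5 with an unadjusted p under 0.05 and 0 passing in edgeR, and the part of red cells in the Bpgm level was not tested. Of 14 pentose phosphate and glycogen genes, 1 was higher and 1 lower at day 3, and 2 were higher and 1 lower at day 9. Pgd, which yields NADPH in the pentose phosphate pathway, went from 73.1, 74.3 and 84.2 CPM at day 0 to 146, 134 and 159 CPM at day 3 and 158, 144 and 151 CPM at day 9. It was 1.90-fold and 1.96-fold higher (edgeR adjusted p = 0.00141 and 0.000598), and no later library overlapped day 0. Phka1, the muscle regulator of glycogen breakdown, was 2.33-fold and 2.07-fold lower (edgeR adjusted p = 0.0319 and 0.0436), and Pgm2 was 1.73-fold higher at day 9 (edgeR adjusted p = 0.00892). Between day 3 and day 9, 0 of the 14 passed in edgeR, where 2 were higher and 2 lower at an unadjusted p under 0.05. G6pdx, the first enzyme of the pentose phosphate pathway, was not analysed here.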

How the data were processed

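Poly(A)-selected RNA of 9 tissue samples was sequenced, 3 at each of day 0, day 3 and day 9 after talc, and groups were taken from the sample titles. The authors deposited 1 table for the series with counts of reads per gene and library, which were used for every test here. The same table holds the authors' log2 fold changes and their FDR-adjusted p-values. Counting those p-values under 0.05, the authors' deposited table has 7 of the 34 genes higher and 3 lower at day 3 against day 0, 7 and 3 at day 9 against day 0, and 1 and 2 at day 9 against day 3. The share of all genes under the authors' FDR was not counted here. These member counts therefore have no background to be set against. Per the submitters' processing notes the genome builds are GRCm38 and mm10. The aligner, the program that counted reads and the strand of the libraries were not given in the sources used here. Reads of a gene and of an overlapping or antisense gene therefore cannot be told apart. Only 2 of the 34 genes had the same coordinates in the table as in GENCODE M21, so no coordinates from the table are given. Pairs of libraries of 1 day differed by more than sampling noise (chi-square per degree of freedom between 8.61 and 153), and each library was counted once.

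The filterByExpr function left 14794 genes, and edgeR 4.0.16 in R 4.3.3 fitted the quasi-likelihood model with TMM factors to the 9 libraries together, 1 mean for each day (6 residual degrees of freedom). Tests were two-sided with Benjamini-Hochberg adjustment over all genes tested, and a gene is said to have passed, or to have been called, at an adjusted p under 0.05. The SE is the size of the log2 fold change divided by the root of its F statistic. CPM values are counts divided by the TMM-scaled library size, on the usual CPM scale. Reads per exon length used the merged exons of GENCODE M21. Merging joins the exons of all annotated transcripts, so a length may exceed that of the transcript present. The lengths differed widely, with 13401 bases for Pfkp, 8532 for Hk1 and 3340 for Pfkm, and every share depends on them. Shares and CPM carry counting error that is not given separately. Isoform ratios were compared by exact permutation tests with scipy 1.17.1, and figures were drawn with matplotlib 3.10.9. The test was checked on simulated counts for day 9 against day 0, with the same spread for every gene and no differences in tissue content. That check does not show how the test behaves with the uneven spread of these libraries.

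All 34 genes are described by role, with values in every library for those called in any comparison and for the muscle isoforms. Values of Slc2a3, Hk2 and Egln3 and of some genes outside the 34 were added after they were seen. The members and all gene lists were chosen with earlier results of these data known. Of 60 entries in the 4 further pathway lists, 58 were in the table. The 19 alternatives were 2 other scalings, no filter on low counts, DESeq2 1.42.0, limma-voom (limma 3.58.1), the replicate number as a block, only the libraries of the days compared, skeletal muscle or alveolar type 2 markers as a covariate, leaving out each of the 9 libraries, and leaving out 3 libraries with high cartilage and bone markers, which was chosen after seeing the data. Each covariate was the mean log2 CPM of the marker list in a library, not the summed CPM.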

Additional observations from a re-analysis of the deposited data

How the results depend on the processing

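Counts of genes are given at an edgeR adjusted p under 0.05 unless another tool is named, and "at day 3" and "at day 9" mean against day 0. Hif1a, Slc2a1 and Pgam1 passed in all 19 alternatives in both comparisons with day 0, and Hk3, Pfkp and Vegfa in all 19 at day 9. Eno1 on both days, Pfkl at day 9 and Vegfa at day 3 passed in 18 of 19. No alternative turned the direction of a gene that had passed, and the signs that turned, given here as log2 fold changes, belong to genes that had not passed in that comparison. Over all genes, 1904 were higher and 486 lower at day 3, 2246 and 820 at day 9, and 768 and 542 between day 3 and day 9. With no filter on low counts no member's call or direction changed. Scaling by library totals alone moved the median log2 fold change of all genes at day 9 to 0.11.

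With relative log expression factors, the sign turned for Pgk1 -0.016 at day 9. With library totals alone, counts that moved by over 1.5 times were 536 lower of all genes at day 9. The sign turned for Slc2a3 0.078 at day 3, and Slc16a3 0.063 at day 9. With DESeq2, counts that moved by over 1.5 times were 7 lower of the members at day 3, 6 lower of the members at day 9, 3 higher and 5 lower of the members between day 3 and day 9, 1226 lower of all genes at day 3, 1567 lower of all genes at day 9 and 1366 higher and 1037 lower of all genes between day 3 and day 9. The sign turned for Pgk1 -0.016 at day 9. With limma-voom, the sign turned for Pfkl -0.0023 between day 3 and day 9. With only the 6 libraries of the days compared, counts that moved by over 1.5 times were 1 lower of the members at day 3, 9 lower of the members at day 9, 0 lower of the members between day 3 and day 9, 749 higher and 175 lower of all genes at day 3, 3014 lower of all genes at day 9 and 167 higher and 91 lower of all genes between day 3 and day 9. With skeletal muscle markers as a covariate, counts that moved by over 1.5 times were 3 higher and 6 lower of the members between day 3 and day 9, 3116 higher and 2430 lower of all genes at day 3, 2171 lower of all genes at day 9 and 1373 higher and 1168 lower of all genes between day 3 and day 9. The sign turned for Bnip3 0.018 and Pgk1 0.092 at day 3, and Tpi1 0.065, Ldha 0.055, Pkm 0.10 and Slc16a3 0.18 at day 9. With alveolar type 2 markers as a covariate, counts that moved by over 1.5 times were 9 lower of the members at day 3, 11 lower of the members at day 9, 2 higher of the members between day 3 and day 9, 1031 higher of all genes at day 3 and 2211 lower of all genes at day 9. The sign turned for Pfkfb3 0.033, Pdk1 -0.48, Pdk4 -0.093, Hk2 -0.35, Slc2a3 0.72 and Gpi1 -0.077 at day 3, and Slc2a3 0.089 and Pgk1 -0.19 at day 9, and Hk1 -0.064, Slc2a4 0.26 and Vegfa -0.10 between day 3 and day 9. Without the 3 libraries with high cartilage and bone markers, counts that moved by over 1.5 times were 0 lower of the members between day 3 and day 9, 491 higher and 243 lower of all genes at day 3, 1072 higher and 272 lower of all genes at day 9 and 136 higher and 36 lower of all genes between day 3 and day 9. The sign turned for Pdk1 -0.059, Car9 -0.11, Gpi1 -0.0031 and Pfkfb4 -0.18 at day 3, and Egln3 0.019 and Pgk1 -0.18 at day 9, and Pfkfb3 0.15, Slc2a3 0.23, Slc2a4 0.11, Hif1a 0.0041 and Pfkm 0.10 between day 3 and day 9. The 3 libraries with high cartilage and bone markers were left out after seeing the data. The cause of these differences was not tested.

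Leaving out 1 library at a time gave 5 to 9 higher of the members at day 3, 1 to 7 lower of the members at day 3, 1 to 8 lower of the members at day 9, 0 to 2 higher of the members between day 3 and day 9, 0 to 7 lower of the members between day 3 and day 9, 687 to 2555 higher of all genes at day 3, 131 to 2624 lower of all genes at day 3, 1381 to 2797 higher of all genes at day 9, 273 to 2221 lower of all genes at day 9, 270 to 2450 higher of all genes between day 3 and day 9 and 85 to 1648 lower of all genes between day 3 and day 9. Members that turned sign ranged over Pfkfb3 -0.56 to 0.044, Pdk1 -0.065 to 0.23, Slc2a3 -0.42 to 0.40, Pfkfb4 -0.073 to 0.26 and Hk1 -0.023 to 0.25 at day 3, over Slc2a3 -0.42 to 0.030, Slc16a3 -0.20 to 0.067 and Pgk1 -0.11 to 0.12 at day 9, over Pfkfb3 -0.45 to 0.090, Slc2a3 -0.64 to 0.19, Gapdh -0.16 to 0.19, Ldhb -0.087 to 0.44, Adm -0.083 to 0.19, Pkm -0.13 to 0.20, Hk1 -0.089 to 0.19, Pfkl -0.11 to 0.14, Slc2a4 -0.37 to 0.18, Hif1a -0.22 to 0.023, Pfkm -0.42 to 0.18, Vegfa -0.048 to 0.27, Pgam2/Pgam1 -0.14 to 0.33, Pfkm/(Pfkl+Pfkp) -0.53 to 0.012 and Ldhb/Ldha -0.35 to 0.13 between day 3 and day 9, where a pair of names gives the log2 count ratio. The exact tests of the ratios cannot go below p = 0.1 and show no stability.

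The replicate numbers are not said by the labels to mark shared mice or days. Same-numbered libraries had correlations of deviations from the day mean between -0.25 and 0.47, and differently numbered ones between -0.60 and 0.52. Tissue content also differed between libraries, so these correlations cannot settle whether same-numbered libraries share a mouse or batch. With the replicate number as a block, the calls were 3 higher and 0 lower of the members at day 3, 5 higher and 1 lower of the members at day 9, 0 lower of the members between day 3 and day 9, 186 higher and 28 lower of all genes at day 3, 777 higher and 123 lower of all genes at day 9 and 82 higher and 45 lower of all genes between day 3 and day 9, and the sign turned for Pdk1 -0.0056 and Slc2a3 0.15 at day 3, and Slc2a3 0.089, Pfkfb4 0.081 and Slc16a3 0.17 at day 9, and Pfkl -0.0091 between day 3 and day 9. The calls of Hif1a, Slc2a1 and Pgam1 on both days and of Hk3, Pfkp and Vegfa at day 9 held with the block. Depth limits Car9, which had 68 to 178 reads per day.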
